A study of Mus musculus with 6 samples.

Results

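Intronic start clusters are groups of capped RNA 5′ ends that lie inside an intron of a protein-coding gene, on the strand of that gene and away from its annotated promoters. They were found by pooling the 6 CAGE libraries, keeping positions with 30 or more tags, joining positions of one strand up to 20 bp apart and keeping clusters of 100 or more tags. A cluster was kept as intronic where it lay in a protein-coding gene, touched no exon of its strand and was over 500 bp from any 5′ end annotated on that strand in GENCODE M21. The rule gave 1536 clusters, 4.93% of the 31147 clusters of the series, in 938 host genes. The members were therefore chosen by their pooled tags, and 11 intronic clusters with 99 tags lay just outside the rule while 16 members with 100 tags lay just inside it. By distance, the nearest member was 502 bp from an annotated 5′ end, and the farthest cluster left out was at 500 bp.

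CAGE reads the capped 5′ ends of RNAs, so a cluster of tags marks where transcription begins or where a 5′ end is capped. Many mammalian genes use more than one promoter, and a promoter inside an intron can give a shorter mRNA, a protein with another N terminus or a noncoding transcript. Such alternative promoters are often used in particular cell types. Nuclear RNA also holds long unspliced precursors, and capped 5′ ends within introns have been described as products of processing as well as of initiation.

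The data were 3 libraries of nuclear RNA from R08, a male mouse embryonic stem cell (mESC) line grown without feeders in serum and leukemia inhibitory factor, and 3 from oli-neu, a neural line of mouse oligodendrocyte progenitor (mOPC) origin grown with thyroid hormones, fibroblast growth factor and platelet-derived growth factor. Each cell type is thus 1 line. The mESC libraries held between 16657021 and 37888141 tags and the mOPC libraries between 21925299 and 40928704. Every mESC library carries one library label and every mOPC library another, so preparation and cell type cannot be told apart. The sources used here do not say whether the CAGE libraries came from separate cultures, and p-values measure the spread between these libraries. The summed level of 8 mESC markers was 4029 to 4437 CPM (tags scaled to the library total) in mESCs and 0.274 to 0.486 in mOPCs, where 6 of the 8 were at 0. The summed level of 8 progenitor markers was 2626 to 2873 CPM in mOPCs and 20.9 to 22.0 in mESCs. Lists of 8 markers each for other cells also differed, with differentiated oligodendrocyte markers at 14.2 to 15.0 CPM in mESCs and 274 to 310 in mOPCs, astrocyte markers at 47.9 to 51.6 and 308 to 334, and neuron markers at 284 to 309 and 102 to 122. Their part in the results was not tested. In such bulk RNA, fewer cells that use a start and less RNA per cell cannot be told apart.

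The bases at the start could be read for few members, because sequence was at hand only around RefSeq transcript starts, from 250 bases before to 50 after each. Of the 1536 members, 17 lay in such a window of their own strand and 37 in a window of the opposite strand alone, which together is 3.52%. RefSeq thus lists a start near 17 members that are far from every 5′ end in GENCODE M21. Of the members with the most tags among those covered, 9 are printed here with a second member of Sall1, in lower case with the main start, the position with the most tags, and the next base in capitals. They were chosen after it was known which members were covered, and they show what stands at the starts of members used in mESCs, in mOPCs and in both.
Frrs1: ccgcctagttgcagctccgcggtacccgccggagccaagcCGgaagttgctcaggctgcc
Hnrnpf: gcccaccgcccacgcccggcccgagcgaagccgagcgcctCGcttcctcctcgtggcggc
Dock8: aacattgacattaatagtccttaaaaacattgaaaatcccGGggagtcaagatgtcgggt
Sall1, nearer the 3′ end of the gene: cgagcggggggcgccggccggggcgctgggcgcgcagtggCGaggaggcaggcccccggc
Sall1, nearer the 5′ end of the gene: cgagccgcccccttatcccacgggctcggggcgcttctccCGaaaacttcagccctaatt
Nlgn1: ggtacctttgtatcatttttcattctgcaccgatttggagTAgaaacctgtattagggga
Hist1h2be: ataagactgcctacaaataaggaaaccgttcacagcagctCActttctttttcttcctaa
Pde4d: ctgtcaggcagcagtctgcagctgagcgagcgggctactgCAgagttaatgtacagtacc
Nrp2: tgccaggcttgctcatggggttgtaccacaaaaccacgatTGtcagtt
Drg1: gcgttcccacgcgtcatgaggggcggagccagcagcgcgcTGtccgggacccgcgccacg

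These runs are from RefSeq on GRCm38.p6, written 5′ to 3′ on the strand of the member. They lie at chr3:116861637-116861696 (plus strand) for Frrs1, chr6:117907775-117907834 (plus) for Hnrnpf and chr19:25033091-25033150 (plus) for Dock8. The Sall1 runs are at chr8:89042834-89042893 and chr8:89043494-89043553 (minus), that of Nlgn1 at chr3:26153951-26154010 (minus) and that of Hist1h2be at chr13:23585972-23586031 (minus). Those of Pde4d, Nrp2 and Drg1 are at chr13:109441042-109441101 (plus), chr1:62718389-62718436 (plus) and chr11:3202295-3202354 (minus).

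Transcription by RNA polymerase II typically starts at a purine that follows a pyrimidine. In the deposited positions this pair lay 1 base downstream of where it was first looked for. At clusters on annotated starts, the base before the main start and the main start itself were a pyrimidine and a purine in 1.16% of 11373 clusters with sequence. The main start and the base after it were such a pair in 88.3% of 11312, with 88.4% on the plus strand and 88.2% on the minus strand. The same shift was seen at clusters higher in mESCs (86.8%) and at those higher in mOPCs (89.7%). Of the 54 members with sequence, 48 had the pair 1 base downstream (88.9%, 95% exact binomial interval 77.4 to 95.8) and 1 had it at the main start. Among the printed runs, 9 of 10 show the pair in capitals and Dock8 does not. Coordinates are given as deposited, and the members without sequence were not examined for the pair. The letters TATAA, searched on the strand of the start from 40 to 21 bases before it, were in none of 53 members, in 2.45% of 11220 clusters on annotated starts and in 3.32% of the 32851 RefSeq windows.

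Frrs1, Hnrnpf and Dock8 had their members in both cell types and at higher levels in mESCs. The Frrs1 member had 69.0 ± 4.98 CPM in mESCs and 11.2 CPM in mOPCs (SD, n = 3). Hnrnpf, which encodes an RNA-binding protein, had 59.2 ± 2.72 CPM and 11.1 CPM, and Dock8 had 57.2 ± 5.65 and 9.63 CPM. The Dock8 member lay 23 bp from the RefSeq start of another gene, Ndufb4b. The member of Hist1h2be, a histone H2B gene, had 46.0 ± 9.55 and 3.85 CPM. It lay 21 bp before a RefSeq start of its own strand, which is listed under the symbol H2bc6. The printed members of Frrs1, Hnrnpf, Sall1 and Nlgn1 lay within 16 bp of a RefSeq start of their own host gene. Pde4d, a phosphodiesterase of cyclic AMP, had no tag in mESC replicates 1 and 2, 0.0543 CPM in replicate 3 and 36.8 CPM in mOPCs.

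**Figure D1:**
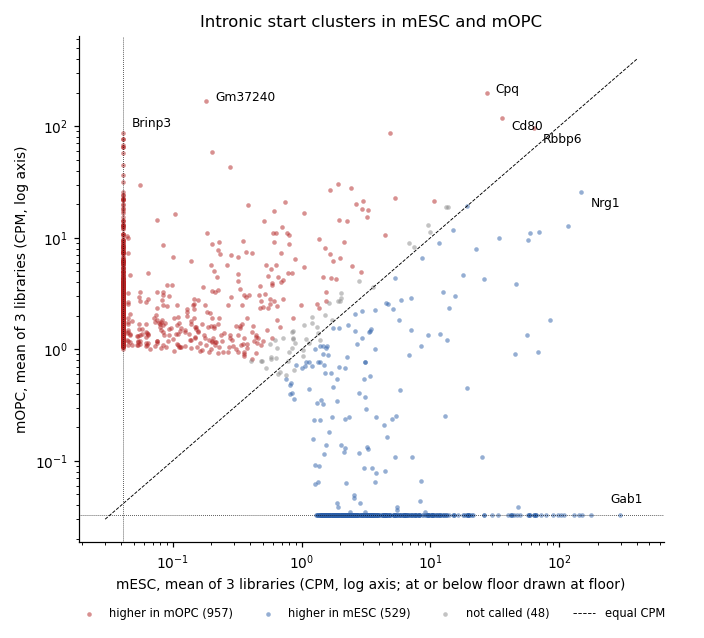
Mean level of each intronic start cluster in mESCs (horizontal) and mOPCs (vertical), in CPM on log axes, with 1 point for each of the 1534 members tested, coloured by the edgeR call. Dotted lines mark the floors of 3 pooled tags, 0.0411 CPM in mESCs and 0.0327 CPM in mOPCs, at which lower values are drawn. Most points lie along the floors, and the members of Cpq, Cd80, Rbbp6 and Nrg1 stand high in both cell types.

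The first comparison asks in which cell type each cluster was used. Of the 1534 members tested, 957 were called higher in mOPCs (62.4%) and 529 higher in mESCs (34.5%), and 48 were not called. Over all 31136 clusters tested, 90.2% were called, 45.5% higher in mOPCs and 44.7% higher in mESCs. The median log2 fold change, mOPCs over mESCs, was 3.60 over members and 0.03 over all clusters, and it was the same with clusters at 0 set to their bounds. Among members of 500 or more tags it was 0.68, with 154 called higher in mOPCs and 141 higher in mESCs. These calls used the quasi-likelihood test of edgeR at a Benjamini-Hochberg adjusted p under 0.05. A member had to have 100 tags in the pool, so one used in a single cell type had to differ, and the counts describe the members rather than test them. Scaling by total tags without TMM moved the median of all clusters to 0.38, and the members then split into 978 and 514. The libraries did not overlap for 980 members higher in mOPCs and 515 higher in mESCs. Among all clusters, 50.6% did not overlap with mOPCs higher and 40.1% with mESCs higher.

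In most members one of the cell types had few or none of the pooled tags. It had 3 or fewer in 1068 members (69.5%) and none in 863. A member could enter through 1 cell type alone, as the rule needed 100 pooled tags, and 797 members had under 200. The share thus follows in part from the rule. At clusters on annotated starts, which had a median of 1242 pooled tags against 191 for members, 16.2% had 3 or fewer tags in one cell type. These clusters were not matched to the members for their number of tags. Of the members with 1000 or more tags, 38 of the 80 higher in mOPCs and 47 of the 70 higher in mESCs had 3 or fewer in the other cell type. Counted by mean CPM, 669 of the 998 members higher in mOPCs had 3 or fewer tags in mESCs, and 399 of the 538 higher in mESCs had 3 or fewer in mOPCs. Levels were low, with a median of 1.82 CPM in mOPCs for the former and 3.14 CPM in mESCs for the latter. In total, members took up 0.588 ± 0.0203% of an mESC library and 0.492 ± 0.0021% of an mOPC library (mean ± SD, n = 3). Each mESC library was above each mOPC library, and the exact two-sided permutation test gave p = 0.1, the smallest that 3 against 3 allow. More members were thus higher in mOPCs, while the share of tags in members was larger in mESCs.

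Members ranged from broad clusters to single positions. As positions under 30 tags were not kept, a member with few tags can hold few positions, so widths are given as a description and follow in part from the number of tags. The 150 members with 1000 or more tags held 60.0% of all member tags, had a median width of 53.5 bp and a median of 77.2% of the tags at the annotated starts of their host in the cell type where they were higher. Those starts were counted within 500 bp of any 5′ end of the host. By mean CPM, 80 of the 150 were higher in mOPCs and 70 in mESCs. The 797 members of under 200 tags held 12.6% of member tags, had a median width of 3 bp and a median of 1.72% of the tags at the host starts. Of these, 572 were higher in mOPCs and 225 in mESCs. Altogether 256 members were a single position (16.7%), of which 215 had under 200 tags and 2 had 1000 or more.

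The members with the most tags fell into those used in mESCs, those used in mOPCs and those shared. The strongest lay in intron 1 of Gab1, which encodes an adaptor of receptor tyrosine kinase signalling, at chr8:80859230-80859279 (mm10, minus strand), 21217 bp from the nearest annotated 5′ end. It had 11048, 4953 and 5454 tags in mESCs and 2, 0 and 0 in mOPCs. The 3 mESC libraries were within 292 to 297 CPM of each other, and the ratio of the cell types was 13480 (95% exact binomial interval 3731 to 111312, counting error only). The annotated starts of Gab1 went the other way, with 16.3 ± 2.11 CPM in mESCs and 125 ± 3.97 in mOPCs. In mESCs the intronic cluster therefore exceeded the annotated starts, and in mOPCs nearly all tags of both were at the annotated starts.

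Macf1, which encodes a crosslinker of microtubules and actin, had a member of 121 bp in intron 1 at chr4:123613708-123613828 (minus strand). It had 4910, 3363 and 3696 tags in mESCs and 0, 0 and 1 in mOPCs, while the annotated starts had 187 CPM in mESCs and 129 in mOPCs. In mESC replicate 1 it had 130 CPM, below the 202 and 201 CPM of the others. Enox1 had a member in intron 7 at chr14:77520113-77520243 (plus strand) with 5151, 2512 and 3021 tags in mESCs and 0, 0 and 1 in mOPCs. Akap12, which encodes a scaffold for protein kinase A, had one in intron 2 at chr10:4334521-4334568 (plus strand) with 5062, 2545 and 2633 tags in mESCs and 1, 0 and 1 in mOPCs. For each of these genes the host starts were active in both cell types. The annotated starts of Enox1 were at 11.5 CPM in mESCs and 51.2 in mOPCs, and those of Akap12 at 434 and 44.8 CPM.

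Among members with no tag at all in mOPCs, the largest differences were in Sgo2b, Klhl13, Camk1d, Cdyl2, Dpys, Gm35315, Ppp2r5c and Efhc2. Sgo2b lay highest, with 4256, 2385 and 2433 tags in mESCs, at least 3801-fold higher than the floor of 3 tags over the mOPC libraries. Klhl13, on chromosome X, had 3406, 1899 and 1900 tags in 5 bp, and its annotated starts were at 18.5 CPM in mESCs and 17.8 in mOPCs. Camk1d, which encodes a calcium- and calmodulin-dependent kinase, had 3299, 1614 and 2007 tags in intron 1, where the annotated starts were at 67.5 CPM in mESCs and 16.0 in mOPCs. Dpys, which encodes dihydropyrimidinase, and Efhc2 were low at their annotated starts, with 4.66 and 0.367 CPM in mESCs and 0 in mOPCs. Their intronic clusters had 71.9 and 64.0 CPM in mESCs. Ppp2r5c, which encodes a regulatory subunit of protein phosphatase 2A, had 64.7 CPM at the cluster and 200.1 CPM at its annotated starts in mESCs. The bounds for these members ranged from 1987-fold for Efhc2 to that of Sgo2b. Only called members could be chosen here, and their adjusted p by edgeR was at most 1.5e-55.

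Among members with no tag in mESCs, the largest differences were in Brinp3, Gramd1b, Ctnna3, Lrrc4c, Ablim1, Lrp4, Cd82 and Nlgn1. Several of these hosts encode proteins of cell contact. Ctnna3 encodes an alpha-catenin of adherens junctions, Lrrc4c a ligand of netrin-G at synapses, Nlgn1 a synaptic adhesion protein that binds neurexins, and Cd82 a tetraspanin. The Brinp3 cluster had 1933, 2585 and 3316 tags in mOPCs, at least 2078-fold over the floor in mESCs, and lay in intron 1 at 909 bp from the nearest annotated 5′ end. Ctnna3 had 1599, 2423 and 2959 tags in intron 1, with 76.4 CPM against 6.47 CPM at its annotated starts in mOPCs. Cd82 had 1234, 1663 and 2452 tags in intron 6, and its annotated starts were below 1 CPM in both cell types. Lrp4, a receptor of agrin, had 1507, 1901 and 2405 tags in intron 1 beside 266 CPM at its annotated starts. The Nlgn1 member, the one with a printed sequence, had 959, 1400 and 1761 tags in mOPCs and lay 16 bp from a RefSeq start of Nlgn1. The annotated starts of Nlgn1, at 73.2 CPM in mOPCs and 0.009 in mESCs, were cell-type specific as well. So were those of Brinp3 (162 and 0.046 CPM) and Lrrc4c (28.6 and 0.009 CPM), and those of Lrp4 had 25.8 CPM in mESCs. Those of Ablim1 (9.49 CPM in mOPCs and 29.8 in mESCs) and Cd82 (0.364 and 0.641 CPM) were higher in mESCs. The smallest bound of these members was 1093-fold, for Nlgn1, with an adjusted p of 1.0e-48 by edgeR.

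**Figure D2:**
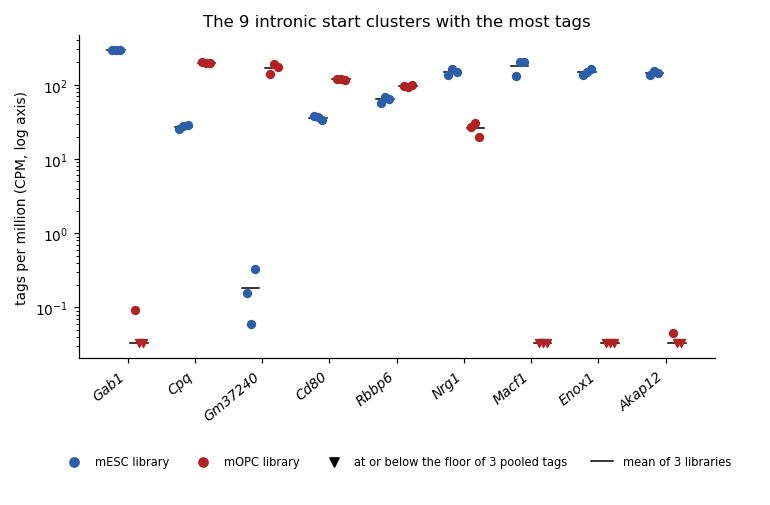
Level in CPM in each library, on a log axis, for the 9 intronic start clusters with the most pooled tags, with mESC libraries in blue, mOPC libraries in red and a bar at the mean of 3 libraries. Triangles are values at or below the floor of 3 pooled tags. Gab1, Macf1, Enox1 and Akap12 reach the floor in mOPCs and Gm37240 is low in mESCs, while Cpq, Cd80, Rbbp6 and Nrg1 have all libraries above 10 CPM.

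Other strong members were present in both cell types, and several of these were confined to very few positions. The Cpq member at chr15:33221382-33221397 (plus strand) had 963, 462 and 526 tags in mESCs and 4386, 5743 and 7967 in mOPCs, with 94.0% of them at 1 position (7.38-fold higher in mOPCs by pooled tags over pooled library totals, fitted log2 fold change with TMM 2.53 ± 0.10 SE, adjusted p = 3.5e-37 by edgeR). The annotated starts of Cpq, which encodes a plasma carboxypeptidase, had 2.32 CPM in mESCs and 0.546 in mOPCs. Cd80, which encodes a costimulatory ligand of T cells, had a member of 2 bp in intron 5 with 1444, 606 and 625 tags in mESCs and 2609, 3498 and 4723 in mOPCs. Its annotated starts were at 21.4 CPM in mESCs and 0.028 in mOPCs, so the cluster and the starts differed in opposite directions. Nrg1, which encodes a ligand of ErbB receptors, had a single position, chr8:32477352 (minus strand), in intron 1 and 406510 bp from the nearest annotated 5′ end. It had 5118, 2694 and 2736 tags in mESCs and 600, 874 and 818 in mOPCs. Of the members with 1000 or more tags, 9 had at least 90% of their tags at 1 position, and 7 of these had 100 or more tags in both cell types. Among the other 141, 37 did.

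Rbbp6, which encodes a ubiquitin ligase that binds the retinoblastoma protein, differed in form. Its member was 83 bp wide, lay 604 bp from an annotated 5′ end, and had 57.6, 69.0 and 64.0 CPM in mESCs and 96.9, 94.0 and 101 CPM in mOPCs. The annotated starts had 4.89 and 7.31 CPM. The cluster and the starts of its host did not differ in their change (difference 0.06 ± 0.15 SE on the log2 scale, adjusted p = 0.77 by edgeR). The widest shared use was in 87 members with 100 or more tags in both cell types, which held 22.2% of member tags. Their median absolute log2 fold change was 1.43, 66.7% were in the first intron, and 32.2% were within 1000 bp of an annotated 5′ end, against 16.0% of all members. Of these 87, 29 were called higher in mOPCs, 43 higher in mESCs and 15 were not called.

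Only 6 of the 150 members with 1000 or more tags were not called, in Drg1, Fat1, Gm21985, Gm37240, Gm20388 and Ino80d. The Drg1 member, with a printed sequence, had 12.5, 11.8 and 15.5 CPM in mESCs and 17.7, 17.6 and 21.3 in mOPCs (log2 fold change 0.18 ± 0.12 SE, adjusted p = 0.16 by edgeR). It lay 39 bp from the RefSeq start of Eif4enif1 on the opposite strand. The Gm21985 member lay 33 bp from that of Emc4, also on the opposite strand. Fat1, which encodes a large cadherin, had 13.7 ± 2.02 and 18.8 ± 0.70 CPM at its member (SD, n = 3; adjusted p = 0.40 by edgeR), while its annotated starts were at 231 CPM in mESCs and 10.2 in mOPCs. A p above the threshold does not show that the levels were equal.

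The second comparison asks whether a cluster changed with the annotated starts of its host. It tested, in 1 model with the library as a block, whether the change between cell types differed between the cluster and the host starts. Of 1463 members tested, 660 (45.1%) changed more towards mOPCs than their host starts, 424 (29.0%) more towards mESCs, and 379 were not called. Over all 2152 clusters in this model the shares were 42.7% and 29.1%. Most of these were the members themselves, and the other 689 were exonic clusters of any protein-coding gene. In either direction, 74.1% of the members and 66.9% of the exonic clusters were called. The median absolute difference from the host starts was 4.40 and 1.67 on the log2 scale. The remaining 73 members had too few tags at the host starts. As with the first comparison, a member near 0 in a cell type tends to differ from a host that is active in both. Across the 1536 members, the log2 ratios of the cluster and of its host starts had a Spearman rho of 0.485 and a Pearson r of 0.465, with 0.05 CPM added to each value. Members of 1 host share its value, so these are descriptions.

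Most members called higher in mOPCs had hosts that were also higher in mOPCs, and fewer of those called higher in mESCs had hosts that were also higher there. Of the 957 members called higher in mOPCs, 628 had host starts more than 2-fold higher in mOPCs, 184 within 2-fold and 145 more than 2-fold higher in mESCs. Of the 529 called higher in mESCs, 208 had host starts more than 2-fold higher in mESCs, 186 within 2-fold and 135 more than 2-fold higher in mOPCs. Members with 1000 or more tags included 23 of 73 called higher in mOPCs whose host went the other way, and 14 of 71 called higher in mESCs.

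Hosts that changed against their member included a receptor and a membrane protease. Nrp2, which encodes neuropilin 2, a receptor of semaphorins, had its member in intron 1 with 0 tags in mESCs and 688, 994 and 1208 in mOPCs, at least 767-fold over the floor. The annotated starts of Nrp2 had 4.59, 4.44 and 6.30 CPM in mESCs and 0, 0 and 0.049 CPM in mOPCs. The groups did not overlap at either place, in opposite directions (adjusted p of the difference 9.9e-20 by edgeR). On the opposite strand, the 500 bp upstream of the Nrp2 member held more tags than the member, with 2 in mESCs and 11055 in mOPCs. The member lay 242 bp from the RefSeq start of Gm29083 on that strand. St14, which encodes a membrane serine protease, had 82, 111 and 151 tags at its member in mOPCs and none in mESCs, whereas the annotated starts had 55.0 to 59.4 CPM in mESCs and 0 in mOPCs. Dlc1 had 30, 37 and 55 tags at a single position in mOPCs, and 265 to 275 CPM at the annotated starts in mESCs against 0.046 to 0.122 in mOPCs. Plekha2 had the same pattern, with 61, 67 and 75 tags in mOPCs and starts at 23.4 to 23.9 CPM in mESCs. In Gm37240 the member had 6, 1 and 6 tags in mESCs and 3106, 5506 and 7081 in mOPCs, and its annotated starts had 2.77 to 4.02 CPM in mESCs and 0 in mOPCs. This gene spans 1391093 bp in the annotation used. Its member lay 1246033 bp from the 5′ end of that span and 58856 bp from the nearest annotated 5′ end.

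In the other direction, Gab1 was joined by Cacng8, Grm7, Adgrl3 and Pde1a, of which 3 encode proteins of neuronal signalling. Cacng8 encodes a subunit that accompanies AMPA receptors, Grm7 a metabotropic glutamate receptor and Adgrl3 an adhesion receptor. Cacng8 had 643, 334 and 353 tags in mESCs and 0 in mOPCs, with annotated starts at 0.651 to 0.765 CPM in mESCs and 22.7 to 24.8 in mOPCs. Adgrl3 had 108, 58 and 52 tags in mESCs and 0 in mOPCs, with starts at 0.053 to 0.271 CPM and 198 to 217 CPM. Grm7 had 107, 56 and 75 tags at a single position in mESCs and 0 in mOPCs, with starts at 45.7 to 62.7 CPM in mOPCs. Pde1a, a phosphodiesterase, had 76, 38 and 35 tags in mESCs. Only members called in the edgeR test of the difference could be chosen here, and their adjusted p was at most 4.1e-16.

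**Figure D3:**
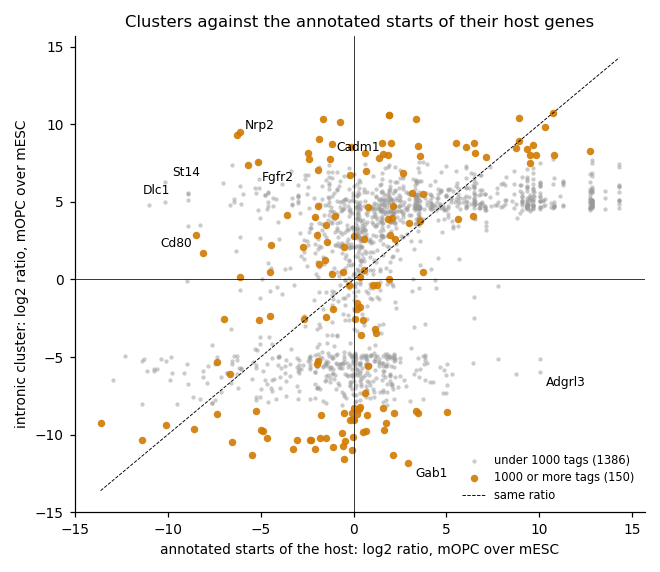
Log2 ratio of mOPCs over mESCs at the annotated starts of the host (horizontal) and at the intronic cluster (vertical), with 0.05 CPM added to each mean, for the 1536 members. Larger orange points are the 150 members with 1000 or more tags, and the dashed line marks the same ratio at both. Nrp2, St14, Dlc1 and Fgfr2 lie in the upper left, where the cluster was higher in mOPCs and the host in mESCs, and Gab1 and Adgrl3 in the lower right.

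Single genes could hold members of both kinds. In 46 hosts at least 1 member was called higher in mOPCs and at least 1 higher in mESCs. Tns3, which encodes a tensin of focal adhesions, had a member with 0, 0 and 1 tags in mESCs and 401, 526 and 790 in mOPCs. Another, 2162 bp away in the same intron, had 604, 222 and 305 tags in mESCs and 0 in mOPCs. In all, 3 members of Tns3 were called higher in mOPCs and 9 higher in mESCs. Dst, which encodes the cytoskeletal linker dystonin, had 1425, 949 and 999 tags in mESCs against 0, 0 and 1 in mOPCs in intron 4, and 2, 0 and 1 against 236, 303 and 465 tags in intron 3, at a distance of 71915 bp. The annotated starts of both genes were active in both cell types, with 80.3 and 245 CPM for Tns3 and 394 and 619 CPM for Dst in mESCs and mOPCs. Frmd4a had 0 tags in mESCs and 486, 680 and 856 in mOPCs in intron 2, and 206, 85 and 95 in mESCs and 0 in mOPCs in intron 18. Grm7, whose member in mESCs is given above, held 2 members called higher in mOPCs, the stronger with 0, 0 and 1 tags in mESCs and 517, 632 and 1089 in mOPCs. These genes were picked for description after their values were seen.

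Members called higher in mOPCs were mostly weak relative to their hosts. Of those called higher in mOPCs, 350 had under 1% of the tags of their host starts in mOPCs, 367 had 1 to 10%, 123 had 10 to 100% and 94 had at least as many. Of those called higher in mESCs, the counts in mESCs were 21, 200, 181 and 116. The rest, 23 and 11 members, had hosts at 0 in that cell type. By mean CPM, the median was 1.81% for members higher in mOPCs and 14.7% for members higher in mESCs.

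**Figure D4:**
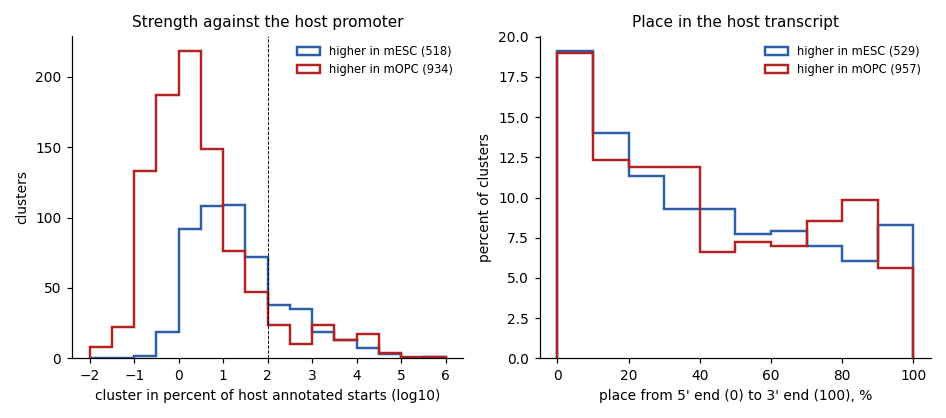
Left, number of members by their tags in percent of the annotated starts of the host in the cell type where the member was higher, on a log10 scale with a dashed line at equal levels, for 518 members called higher in mESCs and 934 called higher in mOPCs whose host had tags there. Right, percent of members called higher in mESCs (529) and in mOPCs (957) in steps of 10% of the host transcript. The mOPC distribution lies lower on the left panel, and both are highest in the first step on the right.

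Tags within introns as a whole moved with this difference. Over all positions, introns held 3.04 to 3.36% of the tags in mESC libraries and 8.14 to 8.61% in mOPC libraries. Of these intronic tags, members took up 18.4 ± 1.19% per mESC library and 5.87 ± 0.18% per mOPC library (mean ± SD, n = 3). The part that this spread of intronic tags has in the number of weak mOPC members was not tested. With positions of 100 or more tags alone, 678 of 1109 members were higher in mOPCs by mean CPM (61.1%), with clusters of 500 or more tags 162 of 303 were (53.5%), and with the cell types scaled to the same total 851 of 1443 were (59.0%).

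A few hosts held many members. Single members were found in 672 hosts, 2 to 4 in 236 and 5 or more in 30, and these 30 held 283 members, of which 242 were higher in mOPCs by mean CPM (85.5%). The 30 hosts had a median length of 221415 bp and a median of 436 CPM at the annotated starts of their higher cell type, against 64775 bp and 56.0 CPM for hosts with 1 member. Their members had a median of 0.365% of the tags at the host starts. Lhfpl3, which marks oligodendrocyte progenitors, had 26 members, all higher in mOPCs. They had between 111 and 957 pooled tags and summed to 63.2 to 75.1 CPM in mOPCs and 0 in mESCs. Its annotated starts were at 436 CPM in mOPCs and 0.009 in mESCs.

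Bcas1, which marks newly forming oligodendrocytes, had 19 members that summed to 64.8 to 65.3 CPM in mOPCs, where its annotated starts had 2323 to 2717 CPM. Cntn1, which encodes the adhesion protein contactin 1, had 18 that summed to 49.6 to 50.8 CPM, with starts at 895 to 1044 CPM. Slc5a6, which encodes the sodium-dependent multivitamin transporter, is 12889 bp long and had 16, with 49.3 to 82.3 CPM in sum and starts at 7418 to 8765 CPM. All members of these 3 genes were higher in mOPCs by mean CPM, and none exceeded 1.58% of the host starts. Anks1b had 16 members, 15 of them higher in mOPCs, beside starts at 653 to 711 CPM. Its exception lay in intron 1, with 123, 59 and 65 tags in mESCs and 31, 50 and 57 in mOPCs. For Slc5a6, the difference between the change of the member and of the host starts was not called for any of the 16 members. The strongest of the 16 had 619, 462 and 670 tags in mOPCs and none in mESCs (adjusted p = 1.3e-05 for the cell types, edgeR).

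**Figure D5:**
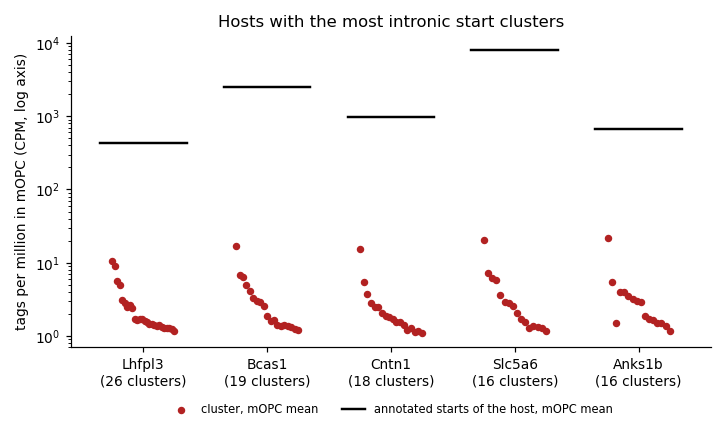
Mean level in mOPCs, in CPM on a log axis, of every intronic start cluster (red points) in the 5 hosts with the most clusters, with the annotated starts of the host as a black bar. In each host the clusters lie well below the bar, and in Slc5a6, with starts at 7971 CPM, the highest cluster has 20.2 CPM.

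Host genes were also read by function, using lists chosen with earlier results of these data known, and their counts stand beside the 62.4% and 34.5% of all members. Of 32 pluripotency and embryonic stem cell genes, 6 were hosts, with 9 members, all called higher in mESCs. Of 38 oligodendrocyte lineage genes, 10 were hosts, with 89 members, all called higher in mOPCs. Lhfpl3 and Bcas1 held 26 and 19 of these members. Both lists are of genes typical of 1 of the cell types, and a member could enter through that cell type alone. The directions in these lists thus follow in part from the choice of genes and members. Members of 1 host are not independent, so the counts of all lists are descriptions. Neural adhesion and axon guidance genes had 19 hosts of 72, with 42 members higher in mOPCs, 3 higher in mESCs and 1 not tested. Receptor tyrosine kinases and growth factor receptors had 7 hosts of 44, with 6 members higher in mOPCs and 4 higher in mESCs. Chromatin regulators had 11 hosts of 65, with 15 higher in mOPCs, 8 higher in mESCs and 2 not called.

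The named members of the pluripotency hosts all lay between 529 and 1684 bp from an annotated 5′ end. Zfp42, which encodes the pluripotency marker REX1, had 1070, 543 and 552 tags in intron 1 in mESCs and 0 in mOPCs, beside 628 CPM at its starts. Sall1, a zinc finger transcription factor, had 2236, 906 and 986 tags in mESCs and 23, 50 and 51 in mOPCs at its stronger member. Its annotated starts had 9.49 CPM in mESCs, below the 55.6 CPM of this member, which lay 9 bp from a RefSeq start of Sall1. Sall4 and Lin28b, the latter an inhibitor of let-7 maturation, had members of 119 and 782 pooled tags that lay 690 and 529 bp from an annotated 5′ end. Nr5a2, an orphan nuclear receptor, had a single position with 123, 41 and 46 tags. Tet1, which oxidizes 5-methylcytosine, had 366, 173 and 202 tags in mESCs, beside 1031 CPM at its starts. None of the pluripotency hosts had a tag at its named member in mOPCs except Sall1.

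The members in oligodendrocyte lineage genes were weak relative to their hosts. Sox10, a transcription factor that specifies the lineage, had 141, 153 and 278 tags in mOPCs and 0 in mESCs, which is 1.83% of its annotated starts at 337 CPM. Sox6 had 164, 285 and 418 tags (1.03%), Tnr, which encodes tenascin R, had 189, 236 and 363 (0.849%), and Ptprz1, a receptor phosphatase, had 48, 80 and 85 at a single position (0.261%). Cspg4, which encodes the proteoglycan NG2, had 48, 38 and 61 tags (0.289%). Nfia had 43, 79 and 79 tags in mOPCs and a single tag in mESCs. Nfib, which like Nfia encodes a nuclear factor I protein, was the one named host of this list with more than a few tags in both cell types, with 25, 12 and 18 in mESCs and 85, 169 and 196 in mOPCs (log2 fold change 2.32 ± 0.23 SE, adjusted p = 1.3e-15 by edgeR). The difference from the host went towards mOPCs in 3 of the 89 members and was not called for 86. All named members of this list except that of Nfib had at most 1 tag in mESCs, so the difference rests on few or no tags there. The host starts in mESCs were at 0 CPM for Tnr, 0.009 for Lhfpl3 and 0.093 for Erbb4. They were at 0.71 to 3.90 CPM for Cspg4, Sox6, Sox10, Ptprz1, Nfia and Bcas1, and at 47.6 CPM for Nfib.

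Adhesion and guidance genes held members of both kinds. Lrrc4c, Nlgn1 and Nrp2 had the strongest. Cadm1, which encodes a synaptic cell adhesion molecule, had 231, 288 and 498 tags in mOPCs and 0 in mESCs, although its annotated starts were higher in mESCs (346 to 396 CPM) than in mOPCs (145 to 167 CPM). The difference passed the edgeR test with an adjusted p of 9.0e-17. Another member of Cadm1, 40501 bp away, had 113, 34 and 56 tags in mESCs and 0 in mOPCs. Robo1, a receptor of Slit proteins, and Cntnap4 had their named members in mESCs, with 47, 27 and 29 and with 74, 34 and 47 tags and 0 in mOPCs. The other named hosts of this list, Cadm2, Cadm4, Chl1, Cntn1, Ctnnd2, Dscam, Ncam1, Nrcam, Pcdh9, Sema3d, Sema6d, Unc5b and Unc5c, had theirs higher in mOPCs.

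Members in some receptor genes moved against the annotated starts. Fgfr2 had 68, 73 and 121 tags in intron 2 in mOPCs and 0 in mESCs, whereas its annotated starts had 613 to 726 CPM in mESCs and 16.7 to 18.1 CPM in mOPCs (adjusted p of the difference 2.4e-18 by edgeR). In the annotation used, Fgfr2 spans 2960900 bp, and this member lay 953118 bp from the 5′ end of that span. It lay 15481 bp from the nearest 5′ end annotated on its strand for any gene. Whether it gives a transcript of Fgfr2 was not tested. A weaker member of Fgfr2, with 65, 43 and 27 tags in mESCs and 2, 0 and 1 in mOPCs, went the same way as the annotated starts. Ddr1, a receptor of collagen, had the reverse, with 144, 55 and 57 tags in mESCs and 0 in mOPCs beside starts at 11.5 and 110 CPM. Fgfr1 had 122, 59 and 73 tags in mESCs and 0 in mOPCs while its starts had 31.3 and 31.8 CPM. Alk, with starts at 0.535 and 0.008 CPM, had 45, 44 and 82 tags in mOPCs and 0 in mESCs, 178857 bp from the nearest annotated 5′ end. Erbb4 and Bmpr2 had theirs higher in mOPCs, and Pdgfrb in mESCs.

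Among chromatin regulators, Tet2 had the strongest member, with 1720, 730 and 945 tags in intron 2 in mESCs and 0 in mOPCs beside starts at 249 and 160 CPM. Arid2, a subunit of a SWI/SNF complex, had 30, 12 and 13 tags in mESCs and 403, 645 and 914 in mOPCs, 28.4-fold higher in mOPCs by pooled tags. Kdm6b, a demethylase of histone H3 lysine 27, had 2.25 CPM in mESCs and 14.1 in mOPCs at its member, above the 1.71 and 2.58 CPM of its annotated starts. Dnmt3a, a de novo DNA methyltransferase, had 1 tag in mESCs and 210 in mOPCs, while its annotated starts were higher in mESCs (58.5 and 22.6 CPM). The named members of Hdac2 and Hdac4 were not called (log2 fold change 0.20 ± 0.25 and -0.06 ± 0.29 SE, adjusted p = 0.44 and 0.84 by edgeR), and the sign of both depended on the libraries used. The named members of Chd2, Chd3, Auts2 and Arid1b were called, that of Chd2 higher in mESCs and the others in mOPCs. Auts2 and Kdm6b each also held a member called higher in mESCs, with 142, 82 and 91 tags against 0 for Auts2 and 340, 151 and 136 against 27, 32 and 35 for Kdm6b.

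Members lay most often in the first intron of their host. The longest annotated transcript of the host that spans the main start served as the frame. In all, 648 members (42.2%) lay in the first intron and 235 (15.3%) in the second. First introns made up 29.1% of the intronic bases of these transcripts, or 32.4% as a mean over members. By mean CPM, 42.9% of the members higher in mESCs and 41.8% of those higher in mOPCs lay in the first intron, where first introns made up a mean of 29.4% and 33.9% of the intronic bases. No test was made of these shares. The median place was 36.2% of the way from the 5′ to the 3′ end, and equal steps of 25% of the transcript held 587, 370, 279 and 300 members from 5′ to 3′. The distance to the nearest annotated 5′ end had quartiles of 1682, 5718 and 17939 bp, and 46 members were over 100000 bp away. Over 5000 bp from a 5′ end the share in first introns was 34.4%. Hosts were long, with a median of 82589 bp, against 24928 bp for the 13642 protein-coding genes with 1 CPM or more at their starts. In 64 hosts the annotated starts were under 1 CPM in both cell types.

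A small set of main starts lay at or beside splice sites, by the positions as deposited. If the start is the base after the deposited one, where the pyrimidine and purine pair lies, each distance here changes by 1 base. In 12 members the main start was the first base of an intron, and in 1 it lay 2 to 10 bp into one. Each of the 12 was a single position with 100 to 296 tags, and all 12 were called higher in mOPCs. By mean CPM, 164 of all 256 members of a single position were higher in mOPCs. So were 572 of the 797 members of under 200 tags, and 62.4% of all tested members were called so. They lay in Rbm39, Map4k4, Slc38a2, Fcho2, Ankrd28, Zeb2, Nufip2, Slc5a6, Ncam1, Kmt2e, Sub1 and Cntn1. That of Rbm39, a splicing factor, had 28 tags in mESCs and 268 in mOPCs. A further 9 main starts lay 3 bp before an exon, of 15 within 10 bp before one, with 101 to 611 tags. Of these, 4 were called higher in mOPCs and 5 in mESCs, among them Nf2, the gene of merlin, with 410 tags in mESCs and 0 in mOPCs. These groups were noticed in the data, and no test was made of them.

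On the opposite strand, tags within 500 bp upstream reached 10% of the member in 612 members (39.8%), against 48.2% of clusters on annotated starts. The share was 24 of 150 for members with 1000 or more tags and 342 of 797 for those with under 200. In 242 members the opposite strand had no tag there. No member lay within 50 bp of a RefSeq miRNA hairpin, and 22 members lay inside more than 1 protein-coding gene of their strand, so that the host could be either.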

How the data were processed

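The values deposited by the authors are raw counts of CAGE tags per 5′ end position and strand, 1 set for each of 6 nuclear RNA libraries, without normalization. According to the methods of the study, reads were aligned to mm10 with bowtie and unique alignments were kept, but another passage of the methods names STAR for CAGE reads and the processing notes of the submitters list CASAVA 1.8 and BWA 0.5.9. Tags from near-identical copies of a sequence are thus lost or placed at one of them. Clusters were built in Python 3.11.15 (pandas 2.3.3, numpy 2.4.6, scipy 1.17.1) and drawn by matplotlib 3.10.9. CPM were computed from the deposited tags of each library. Clusters and host starts were compared in R 4.3.3 by edgeR 4.0.16, using its quasi-likelihood F test (TMM factors, filterByExpr, robust dispersions, adjusted p under 0.05), on all 31147 clusters for the cell types, of which 31136 passed the filter. DESeq2 1.42.0 was an alternative. On simulated counts for 31147 clusters the test recovered 200 of 200 planted changes of 2 on the log2 scale, with 5.21% false calls, and on 2279 cluster and host pairs 200 of 200 with 5.29%. Few of the simulated clusters were made to change, whereas 90.2% of the clusters in the data were called. In the data 69.5% of members also had 3 or fewer tags in one cell type, which was not simulated. The recovery and false calls therefore describe the simulated setting and not the calls given here. Libraries of a cell type differed beyond counting noise (chi-square per degree of freedom 3.76 to 8.96). Bounds use a floor of 3 tags over the pooled 72972385 mESC or 91692553 mOPC tags, and with 1 to 3 tags a 95% exact binomial interval was given. Tags carry no molecular identifiers, so both cover counting error only.

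The members and gene lists were chosen with earlier results of these data known. Named were the 10 members with the most tags, 8 called members per direction with the largest fold change (1 CPM or more, libraries not overlapping, 1 per host), 5 called members per direction with the largest difference from the host starts, the strongest member of each listed host and the 5 hosts with the most members. Others were chosen after their values were seen. No genome sequence was used, so sequences come from RefSeq promoter windows on GRCm38.p6, and the plan to print those of the named members was changed accordingly. Some of the items chosen by these rules are not reported here.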

Additional observations from a re-analysis of the deposited data

How the results depend on the processing

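The counts of members called higher in mOPCs ranged from 950 to 978 and in mESCs from 514 to 530 under DESeq2, DESeq2 size factors, total tags without TMM, no filter on low counts and each library left out. Between 1471 and 1485 of the 1486 calls were also made under each of these. The deviations of same-numbered mESC and mOPC libraries had correlations of 0.077, 0.039 and 0.031, against -0.084 to 0.038 for libraries of unlike number. These values are small and show no clear pairing by number, but they cannot exclude one. With a replicate block the calls were 954 and 530, the calls against the host starts 661 and 424, and the difference in tag share -0.0954 percentage points (exact p = 0.25). Leaving out a library gave a median log2 fold change of 3.54 to 3.79, a difference in tag share of -0.107 to -0.0895 points, and 617 to 657 and 419 to 425 calls against the host starts, and counting only the most 5′ end of the host gave 621 and 366. By construction, fewer members remained with clusters of 200 or 500 tags (739 and 303) or over 5000 bp from a 5′ end (835). The calls were then 154 and 141 with a median log2 fold change of 0.68 at 500 tags, and 517 and 299 with a median of 4.89 over 5000 bp. The share in first introns was 44.8% at 200 tags, 48.5% at 500 tags, 36.7% over 1000 bp and 34.4% over 5000 bp. The share of tags in members was larger in mESCs under every alternative run. The pyrimidine and purine pair, 1.85% at the main start of the 54 members with sequence, was 88.9% when read 1 base downstream, an alternative chosen after seeing the data, and with 3.52% of members covered it says nothing of the rest. The log2 fold change of Hdac4 was 0.29 without TMM and -0.27 to 0.10 with a library left out, above 0 in 4 of 6 cases (0.093, 0.049, 0.10 and 0.039). That of Hdac2 was 0.56 without TMM and -0.055 to 0.50 with a library left out, below 0 without mOPC replicate 3. The cause of these changes was not tested.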
